A study of Mus musculus with 3 samples.

Results

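The genes described here are 10 markers of Kupffer cells, the resident macrophages of the liver, and of macrophages in general, namely Cd14, C1qa, C1qb, C1qc, Csf1r, Mpeg1, Lyz2, Cd68, Adgre1 and Mmp12. They were taken by name, from all probe sets annotated to 1 of these symbols alone, and made up 10 of 8251 genes and 17 of 10833 probe sets with a single gene on the array. These markers, and the other gene lists below, were chosen with earlier results of these data known. Liver RNA came from homozygous apoE knockout male mice of a C57BL/6JxOLA129 background, assigned at an age of 3 months and fed for 12 weeks on 1 of 3 diets in which fat gave 30% of the energy. The control diet held linoleic acid at 1.0% by weight (10 mice assigned). The c9,t11-CLA diet held in its place the same amount of the c9,t11 isomer of conjugated linoleic acid (10 mice), and the t10,c12-CLA diet that of the t10,c12 isomer (9 mice). The array taken as control is the one whose title names no CLA. The diets are semi-purified in the design text and a western diet in the sample labels. Each diet was represented by 1 array, every mouse lacked apolipoprotein E, and no wild-type liver was analysed, so that nothing here describes the effect of the knockout. The sources used here do not say whether an array held 1 mouse or a pool.

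Kupffer cells line the sinusoids of the liver, where they clear particles, dying cells and bacterial products from portal blood, and monocytes from the blood can add to them. Their survival depends on signalling through the receptor encoded by Csf1r. Macrophages, Kupffer cells among them, are a main source of the complement recognition molecule C1q. In mice without apolipoprotein E they also take up lipoprotein cholesterol and form foam cells. In a whole-liver sample, fewer cells of a type and less RNA per cell cannot be told apart.

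The values are MAS5 signals, hybridisation intensities on a linear scale that had been brought to the same trimmed mean on every array. Array medians were between 457.2 and 523.5, and the arrays had between 6074 and 6443 of 12488 probe sets above a floor of 490.3, the median of all signals, which stands in for background. Genes count as measured in a comparison if the brightest probe set exceeded the floor on both arrays. With 1 array per diet there is no replicate, so no difference below has a test or a p-value, and the number of arrays limits the precision. A technical spread was taken from genes with several measured probe sets. It gave an SD of 0.50 for a log2 difference of c9,t11-CLA from control (679 pairs), 0.39 for t10,c12-CLA from control (726 pairs) and 0.49 between the isomers (707 pairs), and it leaves out the variation between mice. The ratio of 3′ to 5′ signal of beta-actin, a sign of RNA integrity, was 1.40 on control, 1.89 on c9,t11-CLA and 1.35 on t10,c12-CLA, and that of Gapdh was 1.06, 0.98 and 0.78. Their part in the differences was not tested. Most hepatocyte markers were also high on the c9,t11-CLA array. Of 9 genes 7 were above control, beside 52.2% of all, and Ttr and Ass1 were below. Their median log2 difference was 0.77, or 0.32 with 6 above 0 after quantile normalization of the arrays. The brightest signal was 135006.8 on c9,t11-CLA, 70778.2 on control and 71110.7 on t10,c12-CLA. The 9 hepatocyte genes, all above the floor, summed to 435076 on c9,t11-CLA, while control had 224806 and t10,c12-CLA 224418. The part of this in the macrophage values was not tested.

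All 10 markers lay above the floor on all arrays through their brightest probe set. Of the 17 probe sets, 12 were above it on every array, 1 on some arrays and 4 on none, the last being second probe sets of Mpeg1, Lyz2, Cd68 and Adgre1. A further probe set annotated to several genes, a marker among them, was left out. Signals under t10,c12-CLA were the brightest for 9 of the 10 markers, all but Lyz2, and the dimmest for 0. The c9,t11-CLA array was dimmest for 6 and the control array for 4.

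**Figure D1:**
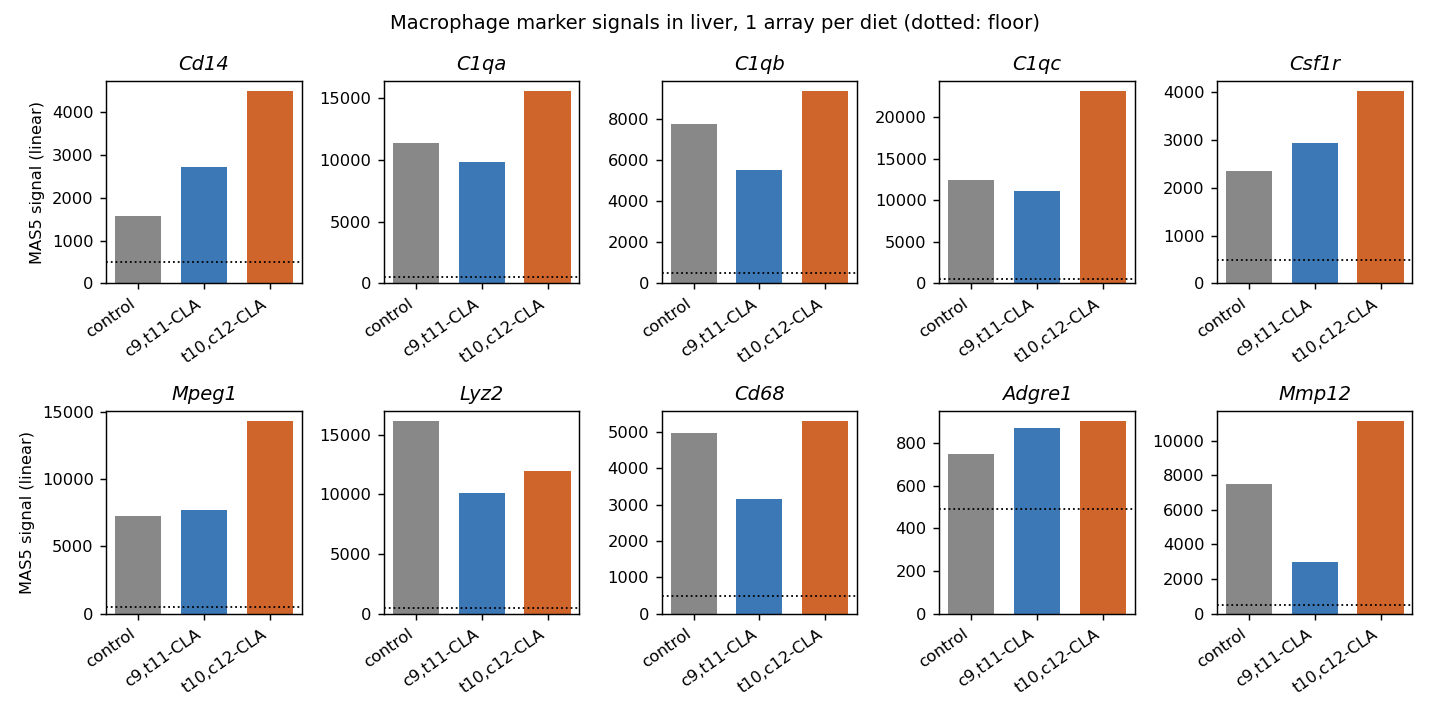
MAS5 signal (linear axis from 0) of the brightest probe set of each marker in the order control, c9,t11-CLA, t10,c12-CLA, with 1 bar per array and the floor of 490.3 dotted; axes differ between genes and no error bar exists because there is 1 array per diet. The t10,c12-CLA bar is the tallest for 9 of 10 genes and the control bar for Lyz2.

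Csf1r encodes the receptor for the growth factors CSF1 and IL-34, on which macrophages depend. Its signal was 2341.8 on the control, 2940.9 on the c9,t11-CLA and 4023.9 on the t10,c12-CLA array. The log2 difference from control was 0.33 for c9,t11-CLA, inside the technical spread, and 0.78 for t10,c12-CLA, outside it. A second probe set of Csf1r did not show this order. It gave 1182.7 on control, 342.6, below the floor, on c9,t11-CLA and 1050.8 on t10,c12-CLA, which is at least 2.41-fold lower on c9,t11-CLA and a log2 difference of -0.17 on t10,c12-CLA. With both probe sets averaged, the log2 difference of t10,c12-CLA from control was 0.31.

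Cd14, a surface protein that hands bacterial lipopolysaccharide to the TLR4 receptor, had the largest difference of the markers from control. Its signal was 1561.6 on the control, 2717.6 on the c9,t11-CLA and 4494.9 on the t10,c12-CLA array. Both CLA arrays were thus brighter than control, c9,t11-CLA by 1.74-fold and t10,c12-CLA by 2.88-fold, or 0.80 and 1.53 on the log2 scale. Only 1 probe set measured Cd14. Among 4391 genes measured in the t10,c12-CLA comparison its difference ranked 20 from the top, and among 4324 in the c9,t11-CLA comparison 264. Between the isomers Cd14 was 1.65-fold brighter on t10,c12-CLA, a log2 difference of 0.73. Hepatocytes can also make Cd14 in inflammation, and the cell source of the signal was not tested.

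C1qa, C1qb and C1qc encode the 3 chains of C1q, which binds immune complexes and dying cells and starts the classical complement pathway. C1qa gave 11330.0 on control, 9776.9 on c9,t11-CLA and 15580.6 on t10,c12-CLA. C1qb gave 7780.2, 5543.3 and 9394.8 in the same order. C1qc gave 12400.3, 11141.0 and 23148.1. For each chain the c9,t11-CLA array was the dimmest and the t10,c12-CLA array the brightest. On c9,t11-CLA the log2 differences from control were -0.21, -0.49 and -0.15, all within the technical spread. On t10,c12-CLA they were 0.46, 0.27 and 0.90, of which C1qb lay within it. Between the isomers the chains stood at 0.67, 0.76 and 1.06, all beyond the spread, and C1qc was 2.08-fold brighter on t10,c12-CLA. A second probe set of C1qb went the other way on both diets, with signals of 1190.5, 1523.0 and 858.6. Its log2 differences were 0.36 on c9,t11-CLA, -0.47 on t10,c12-CLA and -0.83 between the isomers. The direction of C1qb therefore rests on its brighter probe set.

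**Figure D2:**
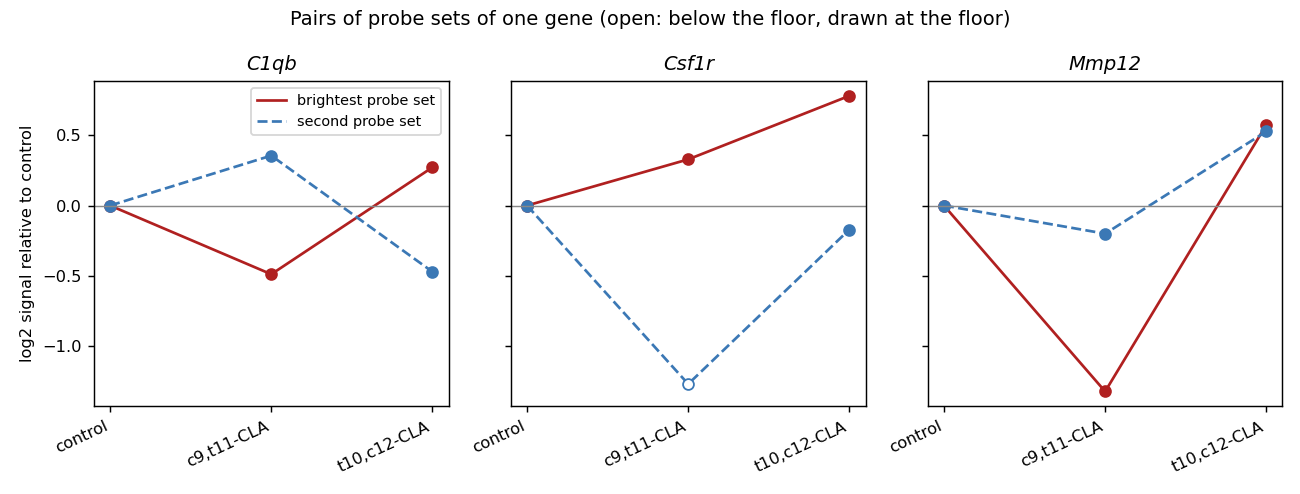
Log2 signal relative to the control array (vertical axis) on the 3 arrays for the markers with 2 probe sets above the floor on control, the brightest as a solid and the second as a dashed line; an open circle is a signal below the floor, drawn at the floor. The probe sets of C1qb take opposite directions. Those of Csf1r separate at c9,t11-CLA and have opposite signs at t10,c12-CLA (0.78 and -0.17). Those of Mmp12 meet at t10,c12-CLA (0.57 and 0.53) but not at c9,t11-CLA (-1.32 and -0.20).

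The promoters of the markers were searched for the core motif of PU.1, a transcription factor of macrophages encoded by Spi1. RefSeq promoters of build GRCm38.p6 were at hand for 6 markers, with 7 start sites. C1qa, Cd14, Csf1r and Adgre1 were not matched. The letters GAGGAA, on either strand within the 250 bases before the start, were found in 4 of these 7 promoters and in 23.3% of all 32851 promoters of the same length. The stretches around all 4 matches are shown. They belong to C1qb and C1qc, to Mmp12, which had the largest difference between the isomers, and to Cd68. They read 5′ to 3′ along the gene's strand, with the match in capitals, and TTCCTC is the same motif on the opposite strand.
C1qb, chr4:136886201-136886260, minus strand: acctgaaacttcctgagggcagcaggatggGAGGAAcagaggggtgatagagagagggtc
C1qc, chr4:136893072-136893137, minus strand: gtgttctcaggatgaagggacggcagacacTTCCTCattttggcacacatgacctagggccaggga
Mmp12, chr9:7344281-7344346, plus strand: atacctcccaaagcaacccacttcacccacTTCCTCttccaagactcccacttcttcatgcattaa
Cd68, chr11:69666360-69666420, minus strand: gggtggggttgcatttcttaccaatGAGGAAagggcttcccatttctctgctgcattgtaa
Counted from the start, with the base before it as -1, the match began at -30 in C1qb, -193 in C1qc, -86 in Mmp12 and -225 in Cd68. The AP-1 motif TGANTCA, which reads the same on both strands and overlapped no PU.1 match here, was present in 2 of the 7 promoters and in 6.75% of all. It lay at -44 of the other start site of Mmp12 and at -149 and -24 of Cd68. These are matches of letters and do not show binding, and a part of PU.1 in the marker signals was not tested. Spi1 itself gave 1098.7 on control, 785.0 on c9,t11-CLA and 1078.1 on t10,c12-CLA, a log2 difference of -0.49 on c9,t11-CLA and -0.03 on t10,c12-CLA.

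Mpeg1 encodes perforin-2, a pore-forming protein that macrophages use against ingested bacteria. It gave 7223.4 on control, 7716.6 on c9,t11-CLA and 14332.3 on t10,c12-CLA. The control and c9,t11-CLA signals were close, at a log2 difference of 0.10 that becomes -0.10 with equal array medians. The t10,c12-CLA array was 1.98-fold brighter than control and 1.86-fold brighter than c9,t11-CLA.

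Lyz2 encodes lysozyme M, an enzyme that breaks bacterial cell walls and is made by macrophages and neutrophils. It was the only marker dimmer on both CLA arrays than on control, with 16171.2 on control, 10087.2 on c9,t11-CLA and 11938.9 on t10,c12-CLA. Its log2 differences from control were -0.68 and -0.44, each a little beyond the technical spread of its comparison, and the isomers differed by 0.24. Lyz2 has a closely similar neighbour, Lyz1, and a probe set for one may also bind RNA of the other.

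Cd68, a glycoprotein of macrophage lysosomes, gave 4953.4 on control, 3159.0 on c9,t11-CLA and 5300.0 on t10,c12-CLA. Only the c9,t11-CLA array stood apart, 1.57-fold below control and 1.68-fold below t10,c12-CLA. Adgre1 encodes F4/80, the surface protein by which mouse macrophages are commonly sorted. It was the most even of the markers, with 749.8, 871.2 and 904.3 in the same order, and no log2 difference above 0.27. Its signals lay less than 2 times above the floor, so its differences are the least certain.

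Mmp12, macrophage elastase, a protease that cuts elastin in the matrix, spread the most over the diets. It gave 7486.0 on control, 2991.3 on c9,t11-CLA and 11147.5 on t10,c12-CLA by its brightest probe set. This is 2.50-fold lower on c9,t11-CLA and 1.49-fold higher on t10,c12-CLA than on control, log2 differences of -1.32 and 0.57. Between the isomers Mmp12 was 3.73-fold brighter on t10,c12-CLA, which ranked 18 from the top of 4382 measured genes. The second probe set gave 1424.4, 1239.8 and 2052.9. It kept the order of the diets with smaller differences, -0.20 and 0.53 from control and 0.73 between the isomers. The identifiers of both carry a letter mark for possible cross-hybridisation or incomplete probe selection, as do that of Cd68 and those of the second probe sets of C1qb and Csf1r. The brightest probe sets of C1qb and Csf1r are unmarked.

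Compared with control, c9,t11-CLA gave a mixed picture of the 10 markers. Cd14, Csf1r, Adgre1 and Mpeg1 were brighter and the other 6 dimmer, where 52.2% and 47.8% of all 4324 measured genes were. The median log2 difference of the markers was -0.18 and that of all measured genes 0.02. Of the markers 1, Mmp12, was at least 2-fold lower, where 2.78% of all measured genes were, and 0 were at least 2-fold higher, where 2.98% were. Beyond the technical spread lay Cd14 upwards, and Mmp12, Lyz2 and Cd68 downwards. With equal array medians the median of the markers was -0.38, but that scaling also moved the median of all genes to -0.16.

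Compared with control, t10,c12-CLA gave higher signals for 9 of 10 markers by their brightest probe sets, the exception being Lyz2. The median log2 difference was 0.52 against -0.01 for all 4391 measured genes, of which 49.1% were above 0 and 50.9% below. Only Cd14 was at least 2-fold higher, 1 of 10 markers beside 2.05% of all measured genes, and 0 were at least 2-fold lower beside 1.87%. Mpeg1 at 0.99 and C1qc at 0.90 lay just under that size, and after quantile normalization of the arrays they were just past it, at 1.01 and 1.06. In all, 6 markers were higher by more than the technical spread, Cd14, Mpeg1, C1qc, Csf1r, Mmp12 and C1qa, and 1, Lyz2, was lower by more. The second probe sets of C1qb and Csf1r were lower than control, at -0.47 and -0.17. With the probe sets of a gene averaged, 8 of 10 markers were above 0. C1qb then stood at -0.10, and Csf1r at 0.31, within the technical spread.

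The isomers, which differ in where the conjugated double bonds lie in the chain and in their geometry, were given at the same dose for the same time. All 10 markers were brighter under t10,c12-CLA than under c9,t11-CLA, with log2 differences from 0.05 for Adgre1 to 1.90 for Mmp12. Their median was 0.74 against -0.05 for all 4382 measured genes, of which 45.7% were above 0 and 54.2% below. At least 2-fold higher were 2 of 10, Mmp12 and C1qc, beside 3.47% of all measured genes, and 0 were at least 2-fold lower beside 2.56%. Adgre1, Lyz2 and Csf1r lay within the technical spread and the other 7 beyond it. Without probe sets that carry a letter mark, Mmp12 and Cd68 drop out and 8 of 8 markers remain above 0. With the probe sets of a gene averaged, 9 of 10 were above 0 and C1qb stood at -0.03. The comparisons with control share the control array, and the interval of a single difference cannot be given from 1 array per diet.

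**Figure D3:**
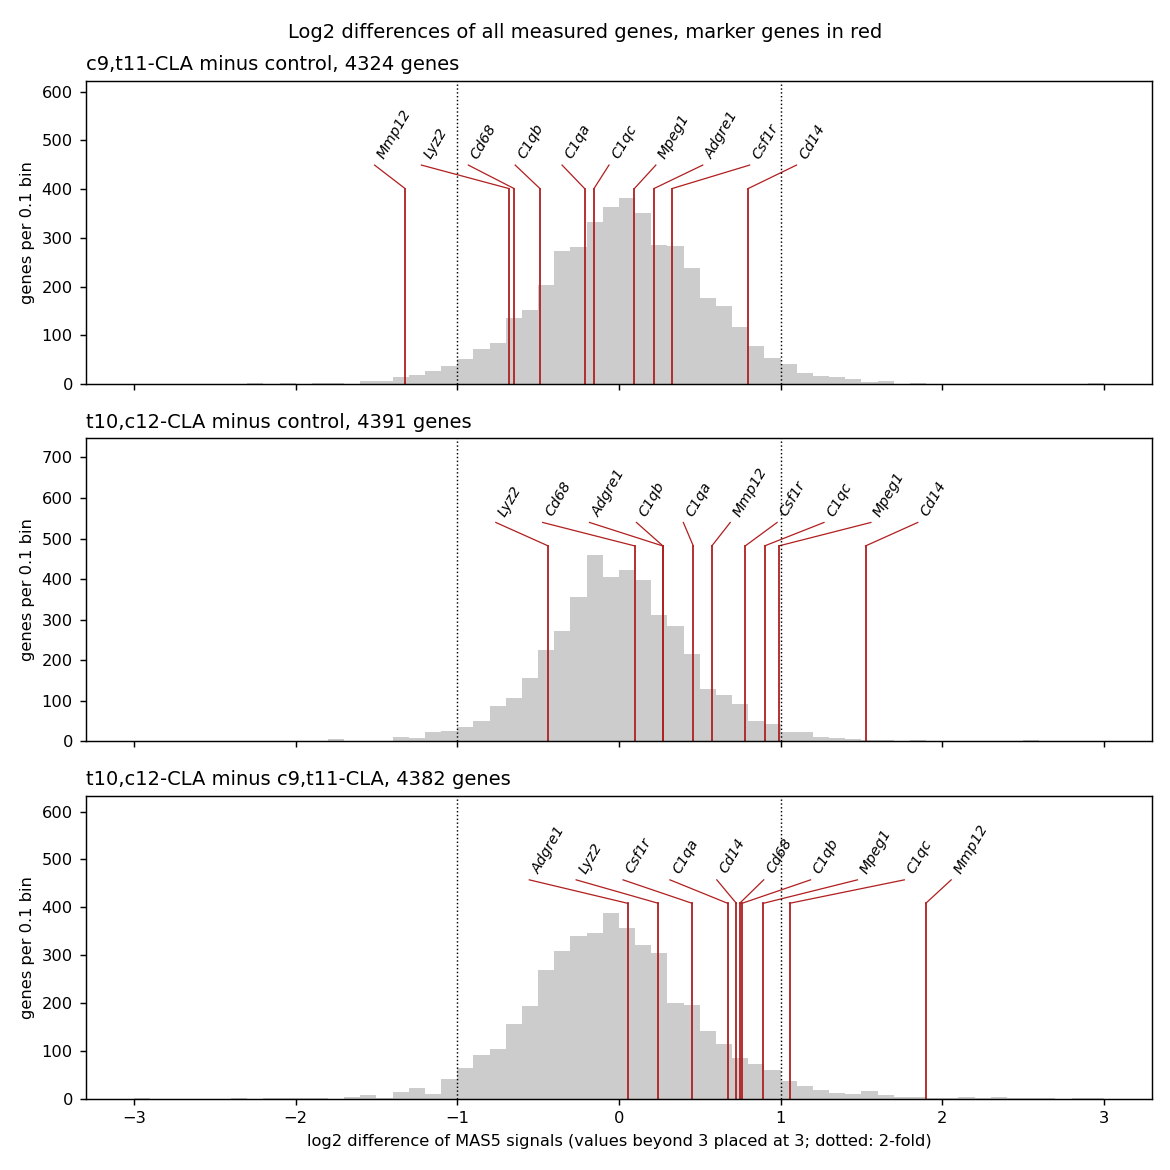
Number of genes per 0.1 bin of log2 difference of MAS5 signals, for each of the 3 comparisons over all measured genes (grey), with the 10 markers as red lines and a 2-fold difference dotted. By their brightest probe sets, the markers lie on both sides of 0 for c9,t11-CLA minus control. In the comparisons of t10,c12-CLA with control and with c9,t11-CLA, 9 of 10 and 10 of 10 lie above 0.

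Genes listed for Kupffer cell identity, some of them also made by other macrophages, did not share a direction on c9,t11-CLA. Of 9 such genes, 5 were on the array and 3 were above the floor. Clec4f, a lectin found on Kupffer cells, gave 4017.7 on control, 7190.5 on c9,t11-CLA and 5227.6 on t10,c12-CLA. Cd5l, a secreted protein of tissue macrophages, gave 13498.8, 7289.7 and 14277.7. Folr2, a folate receptor, gave 1680.9, 1996.2 and 1707.6. On c9,t11-CLA Clec4f was thus higher and Cd5l lower than on control, by 0.84 and -0.89, both beyond the technical spread. On t10,c12-CLA the log2 differences were 0.38, 0.08 and 0.02, and with equal array medians only that of Clec4f was above 0. Between the isomers Cd5l was higher on t10,c12-CLA, at 0.97, and Clec4f and Folr2 lower, at -0.46 and -0.23, so that the median of these 3 genes, -0.23, had the opposite sign to that of the markers. Marco and Spic were below the floor on every array.

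Phagocyte receptors and their adaptors were mostly dimmer on c9,t11-CLA. Of 6 measured genes 5 were below control, with a median of -0.75, beside 47.8% of all measured genes below 0, and 2 were at least 2-fold lower, beside 2.78% of all. These were the inhibitory antibody receptor Fcgr2b, with 1245.9 on control, 533.7 on c9,t11-CLA and 1144.4 on t10,c12-CLA, and the galactose-binding lectin Lgals3, with 3899.9, 1820.4 and 3099.8. The c9,t11-CLA signal of Fcgr2b lay close to the floor, and its probe set carries a letter mark. Sirpa, the receptor for the signal CD47, and Tyrobp, an adaptor of activating receptors, had log2 differences of -0.91 and -0.60, and Aif1 and the antibody receptor Fcgr1 stood at -0.04 and 0.10. Mrc1, the mannose receptor, was at least 2.47-fold lower. On t10,c12-CLA 3 of 7 were above control, beside 49.1% of all, and none reached 2-fold, with a median of -0.12 and Mertk, a receptor for dying cells, at -0.33. Between the isomers 5 of 5 were higher on t10,c12-CLA, beside 45.7% of all, with a median of 0.88 and Fcgr2b and Sirpa at 1.10 and 1.09.

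Genes of the macrophage lysosome and of the oxidative burst were dimmer on c9,t11-CLA than on control in 13 of 16 measured cases, beside 47.8% of all measured genes, with a median of -0.23. By the brightest probe sets only Cd63, a membrane protein of lysosomes, was at least 2-fold lower, beside 2.78% of all. With equal array medians 4 of 16 were, but that scaling lowered the whole array, so that 5.40% of all genes were 2-fold lower and 63.0% below 0. Cd63 gave 2877.3 on control, 1252.4 on c9,t11-CLA and 4497.8 on t10,c12-CLA. Lipa, the acid lipase that frees cholesterol from lipoproteins, gave 2422.1, 1236.0 and 3636.6. Laptm5, a lysosomal protein of blood cells, gave 4539.3, 2437.4 and 6241.0, and its second probe set pointed the same way in each comparison with smaller differences. All 3 genes thus had the order of diets seen for Cd68 and Mmp12. On t10,c12-CLA 10 of 16 were above control, beside 49.1% of all, with a median of 0.13 and none at 2-fold. Between the isomers 13 of 16 were higher on t10,c12-CLA, beside 45.7% of all, with a median of 0.36 and Cd63, Lipa and Laptm5 at 1.84, 1.56 and 1.36. Among the cathepsins Ctsl stood at 0.98 and Ctsc went the other way, at -0.77, while Ctsh was below control on both CLA arrays, by -0.68 and -0.76. The brightest probe set of Ctsb gave -0.16 on c9,t11-CLA and 0.15 between the isomers. Dimmer probe sets of Ctsb gave -0.42 and -1.29 on c9,t11-CLA, and 0.50 and 1.64 between the isomers. Hepatocytes also have lysosomes, and the share of these signals that came from macrophages was not tested.

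Of 10 genes listed for lipid-laden macrophages 7 were on the array, and Trem2, Gpnmb and Spp1 were not among them. Their medians were -0.39 over 6 genes on c9,t11-CLA, 0.12 over 6 on t10,c12-CLA and 0.23 over 7 between the isomers. Those of all measured genes were 0.02, -0.01 and -0.05. The cell source of these signals was not tested. Fabp5, a fatty acid binding protein, was lower on both CLA arrays than on control, by -0.93 and -1.20, and Lpl, lipoprotein lipase, higher, by 0.53 and 0.70. For Lpl a second probe set gave -0.53 on c9,t11-CLA and 0.11 on t10,c12-CLA. Abcg1, a cholesterol exporter, had log2 differences of -0.74 and 0.09. The isomer difference was 0.83 for Abcg1 and 0.70 for the lipid droplet coat gene Plin2. Abca1, another cholesterol exporter, stood at -0.26 and -0.03 from control, and the tetraspanin Cd9 at 0.14 on both diets. Fabp4, a fatty acid binding protein, was below the floor on control and at least 1.63-fold brighter under t10,c12-CLA.

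Of 15 genes for other metalloproteinases and their inhibitors on the array, 9 were below the floor on all arrays and 4 were measured in each comparison. Timp1, an inhibitor of metalloproteinases, followed the order of Mmp12, with 1717.3 on control, 777.4 on c9,t11-CLA and 2265.6 on t10,c12-CLA. Timp3, an inhibitor bound to the matrix, was high on t10,c12-CLA alone, with 680.7, 683.0 and 1861.1. Mmp14, a membrane-bound protease, had log2 differences of -0.42 and 0.25 from control and Mmp11, a protease of stromal cells, 0.43 and -0.06.

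**Figure D4:**
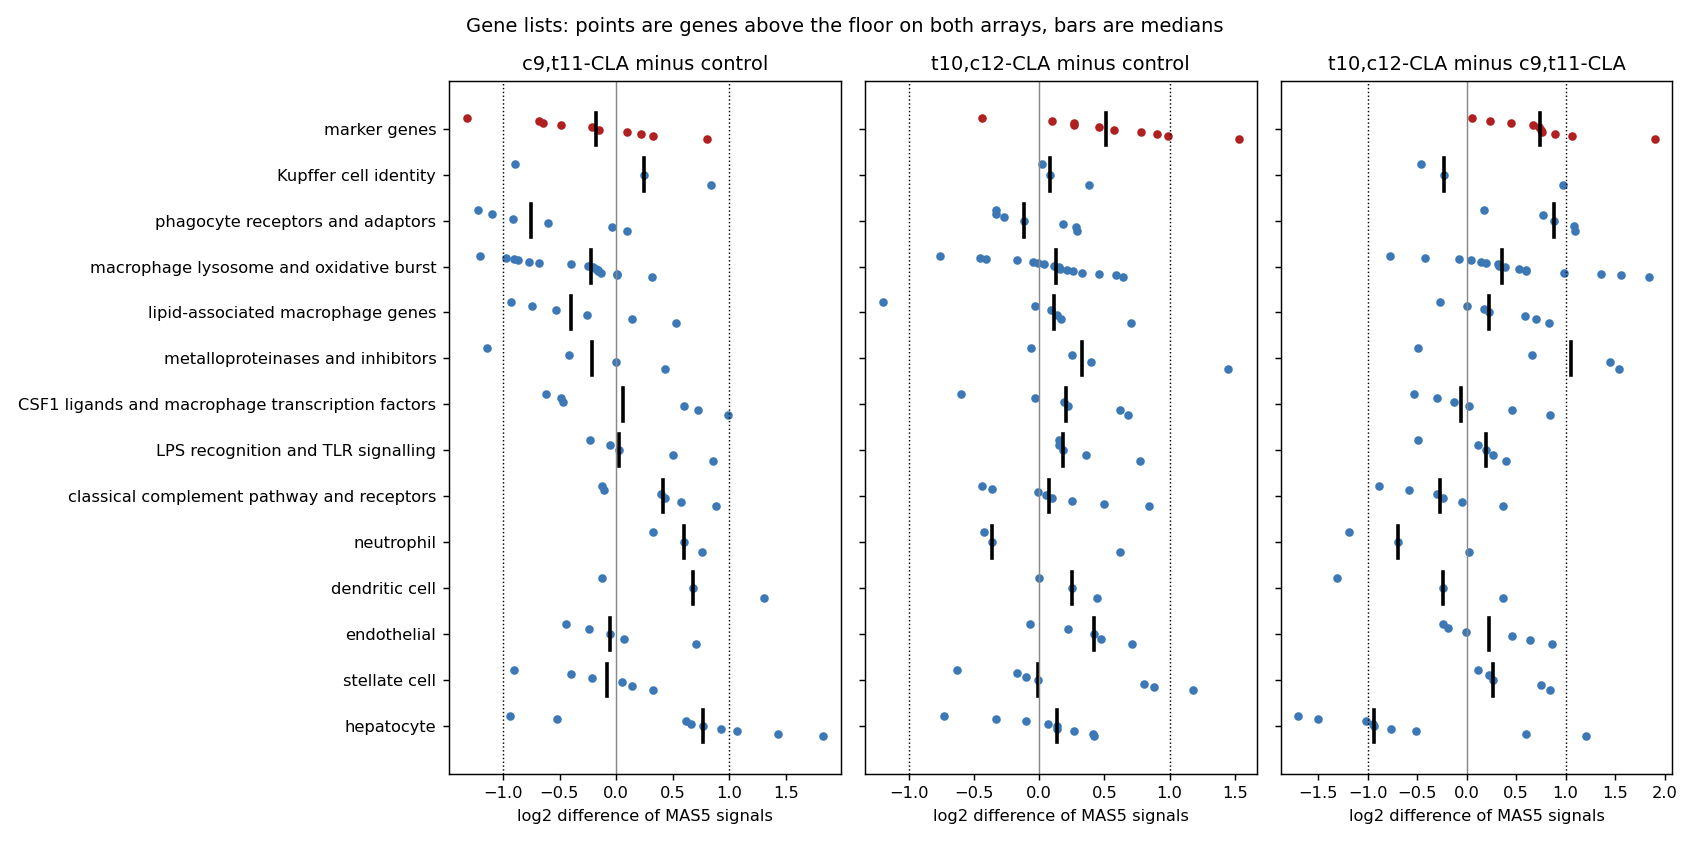
Log2 difference of MAS5 signals (horizontal axis) for the markers (red) and the genes of 13 other lists (blue) in the 3 comparisons; each point is a gene above the floor on both arrays, black bars are medians and dotted lines a 2-fold difference. Between the isomers the markers, the phagocyte receptors and the macrophage lysosome genes have medians of 0.74, 0.88 and 0.36, the 3 Kupffer cell identity genes one of -0.23 and the hepatocyte genes one of -0.94.

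The ligand of Csf1r, Csf1, gave 783.4 on control, 508.6 on c9,t11-CLA and 912.3 on t10,c12-CLA, so that the lowest value lay near the floor. Irf8, a transcription factor of the monocyte line, was lower on both CLA arrays, by -0.47 and -0.60. Cebpb, a transcription factor of macrophages and hepatocytes, was higher on both, by 0.99 and 0.68. Of the receptors for other growth factors, Csf2ra stood at 0.72 and 0.19 and Csf3r at 0.60 and 0.62. The values of Csf3r come from 1 probe set, and 2 others lay below the floor on every array. The 6 measured genes of this group had medians of 0.07 on c9,t11-CLA, 0.21 on t10,c12-CLA and -0.06 between the isomers.

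Of 16 genes listed for lipopolysaccharide recognition and TLR signalling, 9 were on the array, and 4 of these were below the floor throughout. Tlr4 and Ly96 were not on it. The 5 measured genes had smaller log2 differences from control than Cd14 on t10,c12-CLA. On c9,t11-CLA Lbp, at 0.86, exceeded the 0.80 of Cd14. Lbp, the plasma protein that delivers lipopolysaccharide to CD14, gave 11907.4 on control, 21546.6 on c9,t11-CLA and 15333.5 on t10,c12-CLA. Irak1, a kinase of TLR signalling, had log2 differences of 0.50 and 0.77 from control. The adaptor Myd88 stood at 0.03 and 0.15, Traf6, a ubiquitin ligase, at -0.23 and 0.18, and Nfkbia, an inhibitor and target of NF-kappaB, at -0.05 and 0.15. A second probe set of Nfkbia gave 1525.8 on control, 1784.1 on c9,t11-CLA and 1525.0 on t10,c12-CLA. On t10,c12-CLA 5 of 5 genes were above control, beside 49.1% of all measured genes, and none at 2-fold. Only Irak1 lay beyond the technical spread of 0.39 there. On c9,t11-CLA 3 of 5 were above control, about the 52.2% of all, or 2 of 5 with equal array medians or quantile normalization.

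Other proteins of the classical complement pathway did not take the order of the C1q chains. C1ra, a protease that C1q activates, gave 5695.4 on control, 8460.1 on c9,t11-CLA and 5655.6 on t10,c12-CLA. Serping1, the inhibitor of that protease, gave 43635.6, 58866.9 and 32060.9. Both were brightest on c9,t11-CLA, and both are made largely by hepatocytes. A second probe set of C1ra was also brightest there, with 3194.6, 3899.5 and 2022.7. The protease C2 stood at -0.11 and -0.36 from control and Lrp1, an endocytic receptor, at 0.40 and 0.10. Among receptors found on macrophages, C5ar1, the receptor for the fragment C5a, stood at 0.88 and 0.84 from control and Itgax, an integrin, at -0.12 and 0.25. Itgb2, the integrin partner of complement receptor 3, gave 815.7 on control, 477.6 on c9,t11-CLA and 846.8 on t10,c12-CLA. C3ar1, the receptor for C3a, gave 673.6, 483.1 and 954.0. Both were below the floor on c9,t11-CLA, at least 1.66-fold and 1.37-fold lower than on control. Cd93 was above the floor on t10,c12-CLA alone, with 319.3, 199.2 and 720.9. Of these receptors Itgax, Itgb2 and C3ar1 had the order of the C1q chains, and C5ar1 did not.

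By the distance between their pairs of log2 differences from control, over 4154 genes above the floor on all 3 arrays, the genes closest to Cd14 were Lrch4 (1.03 on c9,t11-CLA and 1.46 on t10,c12-CLA), Fmo5 (0.94 and 1.31) and Plac8 (1.02 and 1.31), at distances of 0.239, 0.257 and 0.312. The closest to the mean of the C1q chains, which was -0.29 and 0.54, were Atp6ap2, Anapc4 and Itpk1, at distances of 0.010, 0.044 and 0.045. A likeness over 3 arrays is a description of these arrays only.

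Markers of other cells were set beside these values. Neutrophil genes, which could contribute to Lyz2, were above the floor for 6 of 9 on some array, with summed signals of 4701 on control, 7292 on c9,t11-CLA and 5327 on t10,c12-CLA. Csf3r, which macrophages also express, made up much of these sums, and without it they were 2537, 4014 and 2006. The granule protease gene Elane and the calcium-binding S100a8 were measured on all arrays, at 0.76 and 0.33 from control on c9,t11-CLA and -0.42 and -0.36 on t10,c12-CLA. S100a9, Camp and Ltf were above the floor on c9,t11-CLA alone, and Ngp, Mpo and Prtn3 on no array. The part of neutrophils in the Lyz2 signal was not tested.

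Endothelial genes, 9 of 9 above the floor on some array, summed to 14268, 14335 and 19482, with a median log2 difference from control of -0.05 on c9,t11-CLA and 0.42 on t10,c12-CLA over 5 genes. On t10,c12-CLA Stab1, a scavenger receptor that macrophages share, stood at 0.71, Cdh5, a junction protein, at 0.47, Tie1 at 0.42, Eng at 0.22 and Kdr at -0.07, and Pecam1 was at least 1.82-fold higher. On c9,t11-CLA these 5 genes stood at 0.07, 0.71, -0.44, -0.24 and -0.05, and Pecam1 was at least 2.08-fold higher. A second probe set of Tie1 gave 0.29 on c9,t11-CLA and 0.0 on t10,c12-CLA. Stellate cell genes, 8 of 9, summed to 46754, 39806 and 54964. By the brightest probe sets, this order rests on the matrix protein gene Bgn, at 1.18 on t10,c12-CLA. Without it the sums were 37712, 28403 and 34531, highest on control. Second probe sets, not in the sums, gave 1.99 for Col1a1, 1.25 for Col1a2 and 0.65 for Bgn on t10,c12-CLA. The brightest probe set of Col1a2 gave -0.10 there. The stellate median on t10,c12-CLA was -0.01 over 7 genes, with 3 above and 4 below 0, among them Col1a1 at 0.80, Col3a1 at 0.88 and Reln at -0.63. The macrophage markers summed to 71998, 56945 and 100265. Of the hepatocyte genes Alb, Apoa2 and Tdo2 were at least 2-fold brighter on c9,t11-CLA than on control, at 1.83, 1.43 and 1.07. Ttr stood at -0.94 and Ass1 at -0.52. The part of other cells in the macrophage values was not tested.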

How the data were processed

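The values were deposited MAS5 signals, an intensity per probe set on a linear scale, per the submitters' processing notes. Per the labels, biotinylated cRNA was made from 8 µg of total RNA. Its version was not given in the sources used here, and no detection calls were used. The 2%-trimmed mean was 1501 on each array, and signals were used without further scaling. Of 12488 probe sets 66 were array controls, 10833 had 1 gene symbol and 396 several. Symbols were updated by Entrez identifier for 10817 through RefSeq names of GRCm38.p6.

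The probe set of a gene with the greatest log2 signal, averaged over the arrays, stood for that gene, and every probe set of a marker was also kept. The floor was the pooled median. Where only 1 array was above it, a bound is the brighter signal over the floor. The technical spread is the SD of differences between pairs of probe sets of a gene, divided by the square root of 2. Alternatives changed the scaling, the floor, a pseudocount and the choice of probe sets. The markers and the 18 other lists (204 genes, 163 on the array) were chosen with earlier results of these data known. From each list every gene was to be named where 6 or fewer were measured, otherwise up to 4 with the largest differences, but not every such gene is given for every comparison. A few genes beside these, such as Ctsc, Itgb2 and C3ar1, were picked once their values were known. Simulated data with known changes served to test the counts. Python 3.11.15, numpy 2.4.6, pandas 2.3.3, scipy 1.17.1 and matplotlib 3.10.9 were used.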

Additional observations from a re-analysis of the deposited data

Results flagged for a closer look

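Mmp12 was lower on c9,t11-CLA than on control and higher on t10,c12-CLA, with log2 differences of -1.32 and 0.57, each beyond the technical spread. It was the only marker for which opposite directions from control both passed that spread. The difference between the diets was not tested, since each had 1 array and both were set against the same control array. The second probe set gave -0.20 and 0.53, so the value on c9,t11-CLA rests on the brighter one.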

How the results depend on the processing

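Over 7 alternatives, 197 of 201 values of single markers moved by less than the technical spread and 4 by more, and 3 changed sign, none of them a 2-fold difference. Many of the 201 could not move. The 30 values with a floor at the 25th percentile, 27 at the 75th and 24 without marked probe sets kept the same probe set. Averaging probe sets could change only C1qb, Csf1r and Mmp12, and it gave all 4 of the larger moves. The count is therefore no measure of robustness. With the probe sets of a gene averaged, Mmp12 stood at -0.76 on c9,t11-CLA and 1.31 between the isomers, and C1qb at -0.10 on t10,c12-CLA. The median of the markers on c9,t11-CLA was -0.38 with equal medians, and on t10,c12-CLA it was 0.38 with averaged probe sets. Markers at least 2-fold lower on c9,t11-CLA numbered 0 with averaged probe sets and 0 without marked ones. On t10,c12-CLA 3 were 2-fold higher after quantile normalization, and between the isomers 1 was without marked probe sets, which leaves Mmp12 out. Equal medians moved the split of 2-fold genes over the whole array. On c9,t11-CLA 129 genes higher and 120 lower became 74 and 234, on t10,c12-CLA 90 and 82 became 71 and 118, and between the isomers 152 and 112 became 207 and 69. A floor at the 25th percentile left 7.60% of genes 2-fold higher and 5.85% 2-fold lower on c9,t11-CLA. Adgre1 fell under a floor at the 75th percentile. No paired analysis was possible because each diet had 1 array.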

Other observations

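Among other white blood cells, T and NK cell genes were dim. Of 10 T and NK cell genes on the array 9 were below the floor throughout, the exception being Cd4 with 751.7 on control, 1053.9 on c9,t11-CLA and 276.4 on t10,c12-CLA. Plac8, listed among monocyte genes, gave 1620.1, 3293.0 and 4011.2, brighter on both CLA arrays, and Cx3cr1, a chemokine receptor of monocytes, gave 715.5, 397.9 and 566.1. Flt3, a receptor of dendritic cell precursors, gave 1407.2, 3489.6 and 1410.2, highest on c9,t11-CLA by a probe set with a letter mark. Its second probe set, also marked, was highest there too, with a smaller log2 difference from control, 0.42 against 1.31. Xcr1, of dendritic cells that present antigen, stood at 0.68 and 0.44 from control. Cd79a, a part of the B cell receptor, was at least 2.20-fold lower on c9,t11-CLA than on control, while Ms4a1, another B cell gene, had a log2 difference of 0.53 and Ighm, an antibody heavy chain, one of 0.34. Of the erythroid genes, Hba-a1 stood at 0.04 on both diets and Alas2 at -0.44 and 0.08.

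Of 14 genes of inflammatory cytokines and chemokines, 9 were below the floor on all arrays, Tnf, Il1b and Il6 among them. Cxcl1, a chemokine for neutrophils, gave 2304.4 on control, 3352.4 on c9,t11-CLA and 2839.8 on t10,c12-CLA, but its second probe set was highest on control, with 1787.9, 1469.5 and 1305.2. Il18 had a log2 difference of -0.17 on c9,t11-CLA and was below the floor on t10,c12-CLA. Ccl2, which attracts monocytes, gave 631.4, 315.6 and 670.6, below the floor on c9,t11-CLA.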
